A study of Mus musculus with 8 samples.

Results

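The 10 hypertrophy and mineralization genes described here are *Col10a1*, *Sp7*, *Ibsp*, *Spp1*, *Bglap*, *Alpl*, *Phospho1*, *Enpp1*, *Ank* and *Mgp*. They were taken by symbol from the 52325 gene identifiers listed for each library, and all 10 were found. RNA from rib (costal) chondrocytes of 7-d-old mice, released with collagenase, gave 4 wild-type and 4 *Mir140*-null sequencing libraries, all labelled C57BL/6J. *Mir140* encodes the cartilage miRNA miR-140, and the comparison asks which transcripts differ in chondrocytes that lack it. The null allele was made with CRISPR/Cas9 and 2 guides in zygotes of mixed C57BL/6 and CBA/ca background, followed by backcrossing onto C57BL/6J. Crosses of heterozygotes then gave separate wild-type and null lines, so line and genotype cannot be told apart. The labels do not say whether each library came from its own animal, and p-values measure the spread between these libraries alone. Values are TPM, a share of transcripts scaled for transcript length to a library total of 1000000. The labels state more than 12000000 reads per library, but the files hold no read counts, and the depth at each gene is not known.

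In the growth plate, chondrocytes enlarge, switch from type II to type X collagen, and release matrix vesicles in which the first mineral forms. Mineral growth depends on the balance of inorganic phosphate, which feeds it, and pyrophosphate, which blocks it. *Enpp1* makes pyrophosphate from nucleotides outside the cell, *Ank* serves its export, *Alpl* (tissue-nonspecific alkaline phosphatase) breaks it down to phosphate, and *Phospho1* releases phosphate inside vesicles. *Sp7* (osterix) is a transcription factor of osteoblasts and late hypertrophic cells. *Ibsp* (bone sialoprotein), *Spp1* (osteopontin) and *Bglap* (osteocalcin) are secreted proteins that bind mineral, and *Mgp* (matrix Gla protein) inhibits calcification once vitamin K-dependent carboxylation has taken place.

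*Mir140* lies in an intron of *Wwp2* on chromosome 8, and gives 2 mature arms. The miR-140-3p sequence is printed because its seed sets which short stretches of a transcript it can pair with. The mature miR-140-5p sequence was missing from the reference used, so sites of that arm were not searched. The RefSeq mature sequence of miR-140-3p (GRCm38.p6, chr8:107551288-107551308, plus strand) is given with its seed, bases 2 to 8, in capitals, and the hairpin (chr8:107551244-107551313, plus strand) with that mature sequence in capitals.
mmu-miR-140-3p: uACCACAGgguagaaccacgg
Mir140 hairpin: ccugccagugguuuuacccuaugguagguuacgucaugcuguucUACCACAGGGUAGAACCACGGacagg
The letters that pair with the seed, CTGTGGT, occurred in 15.9% of 20942 annotated 3′UTRs and in none of the 10 members. The letters CCTGTGG, which pair with bases 3 to 9 (the seed of a miR-140-3p form that starts 1 base later) and share 6 bases with the first, occurred in 16.9% of 3′UTRs and in *Enpp1* alone among the members. Only the strand of the transcript was searched. The *Enpp1* stretch lies 2943 bases into a 3′UTR of 3892 bases (GRCm38, chr10:24638846-24638874, minus strand), with the 7 letters in capitals.
Enpp1: gtaacttctgtCCTGTGGgcacatactta
*Ank*, with a 3′UTR of 1692 bases, held neither of these miR-140-3p words. A match or its absence describes these letters alone.

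Before the members, the libraries themselves need description, since the libraries labelled *Mir140*-null 1 and 2 stood apart. The *Mir140* row was 0 TPM in each library except that labelled *Mir140*-null 2, where it was 8.86 TPM. Its 70 bases are fewer than a 75-base read, and this row cannot check the genotypes, so libraries are named by their labels. The study itself describes genotyping of its mice by ear-notch PCR. Its supplement also reports qRT-PCR in which both arms of miR-140 differed between the genotypes, in RNA samples of which several were sequenced, and a principal component plot in which the genotypes separated. *Wwp2*, the host gene, had 353, 459, 332 and 378 TPM in wild-type 1 to 4 and 261, 349, 394 and 358 TPM in *Mir140*-null 1 to 4, with a log2 fold change of -0.16 (SE 0.15, adjusted p = 0.487), or -0.01 without *Mir140*-null 1 and 2. *Col1a1*, the main collagen of bone and fibrous tissue, had 1544, 793, 1483 and 856 TPM in wild-type 1 to 4, and 47.8, 50.1, 1326 and 898 TPM in *Mir140*-null 1 to 4. *Mir140*-null 1 and 2 thus lay far below the other 6 libraries, while *Mir140*-null 3 and 4 lay within the wild-type range. *Col3a1* (100 and 104 TPM), *Postn* (58.9 and 54.5), *Tnmd* (10.4 and 10.6) and *Thy1* (2.36 and 1.94) had the same order, against lowest values of 880, 367, 79.1 and 15.2 TPM in the other 6 libraries.

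Summed over the 7 fibroblast and tendon markers, wild-type 1 to 4 had 1759, 1007, 2079 and 1085 TPM, and *Mir140*-null 1 to 4 had 152, 161, 1807 and 1092 TPM. *Col3a1* was the most abundant of these, and 6 of the 7 were lowest in *Mir140*-null 1 and 2. For the 16 osteoblast markers the sum was 24420, 26057, 23760 and 24103 TPM in wild-type 1 to 4 and 16845, 17348, 19771 and 21606 TPM in *Mir140*-null 1 to 4, most of it *Sparc*, which chondrocytes also express. Without *Sparc* the sums were 4249, 2406, 4350 and 2622 TPM against 575, 756, 3846 and 3062 TPM. *Mir140*-null 1 and 2 were the lowest libraries for 8 of the 16 osteoblast markers. Of 4 markers of embedded osteocytes, *Phex* had 0.457 to 1.16 TPM in wild-type, against 0.179, 0.0823, 0.621 and 0.433 TPM in *Mir140*-null 1 to 4, and *Dmp1* was found in every library at 0.0724 to 0.281 TPM, where the means were 0.167 TPM (wild-type) and 0.190 TPM (*Mir140*-null). *Mepe* was listed at 0 in all *Mir140*-null libraries and did not exceed 0.0899 TPM in wild-type, and *Sost* did not exceed 0.0400 TPM in any library. Over all 17177 tested genes, *Mir140*-null 1 and 2 were the 2 lowest libraries for 21.1% and the 2 highest for 13.0%. In the file headers these libraries carry the numbers 23 and 24, and the others 29 and 31 to 35. What the numbers stand for is not given in the sources used here.

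Markers of other cell types were summed likewise, and no marker in any list was at 0 in all 8 libraries. The 5 endothelial markers summed to 5.56 to 20.9 TPM in the wild-type libraries, against 3.41, 4.85, 27.1 and 15.0 TPM in *Mir140*-null 1 to 4, with *Pecam1* the most abundant by its mean in each genotype. Of 4 tested in limma, 0 were called, beside 16.9% of all tested genes. At an unadjusted p under 0.05 there were also 0, beside 5821 of all 17177 tested genes. The 11 blood and macrophage markers summed to 443 to 1121 TPM in wild-type, against 327, 185, 1182 and 871 TPM in *Mir140*-null 1 to 4, most of it the haemoglobin gene *Hbb-bs*. Of the 7 tested, 1 was called, beside 16.9% of all tested genes. It was *Lyz2*, a lysozyme of macrophages, at no more than 1.51 TPM in any library. The 8 osteoclast markers, led by *Ctsk*, summed to 59.6 to 80.0 TPM in wild-type, against 33.9, 37.7, 85.5 and 85.7 TPM in *Mir140*-null 1 to 4. None passed in limma (0 of 5 tested also at an unadjusted p under 0.05), beside the same shares of all tested genes. The 8 skeletal muscle markers, led by *Tnnt3*, summed to 76.2 to 103 TPM in wild-type, against 36.5 to 60.4 TPM in *Mir140*-null. None of 4 tested passed the adjusted threshold in limma, though 2 had an unadjusted p under 0.05, again beside these shares of all tested genes. The chondrocyte marker *Col2a1* had 47893 to 61630 TPM in wild-type, against 34418, 48361, 35122 and 47756 TPM in *Mir140*-null 1 to 4. It was abundant in all 8 libraries, and lower in *Mir140*-null 1, 3 and 4 than in any wild-type library, though *Mir140*-null 4 only just (log2 fold change -0.49, adjusted p = 0.0695). Mitochondrially encoded genes took 4.06% to 6.98% of TPM in wild-type, against 8.41% to 10.1% in *Mir140*-null (exact permutation, two-sided p = 0.0286, the smallest that 4 against 4 libraries allow). In bulk RNA, fewer cells of a type and less RNA per cell cannot be told apart. The part of these differences in the results that follow was not tested, and the tested members and the called genes named below are given with and without *Mir140*-null 1 and 2.

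**Figure D1:**
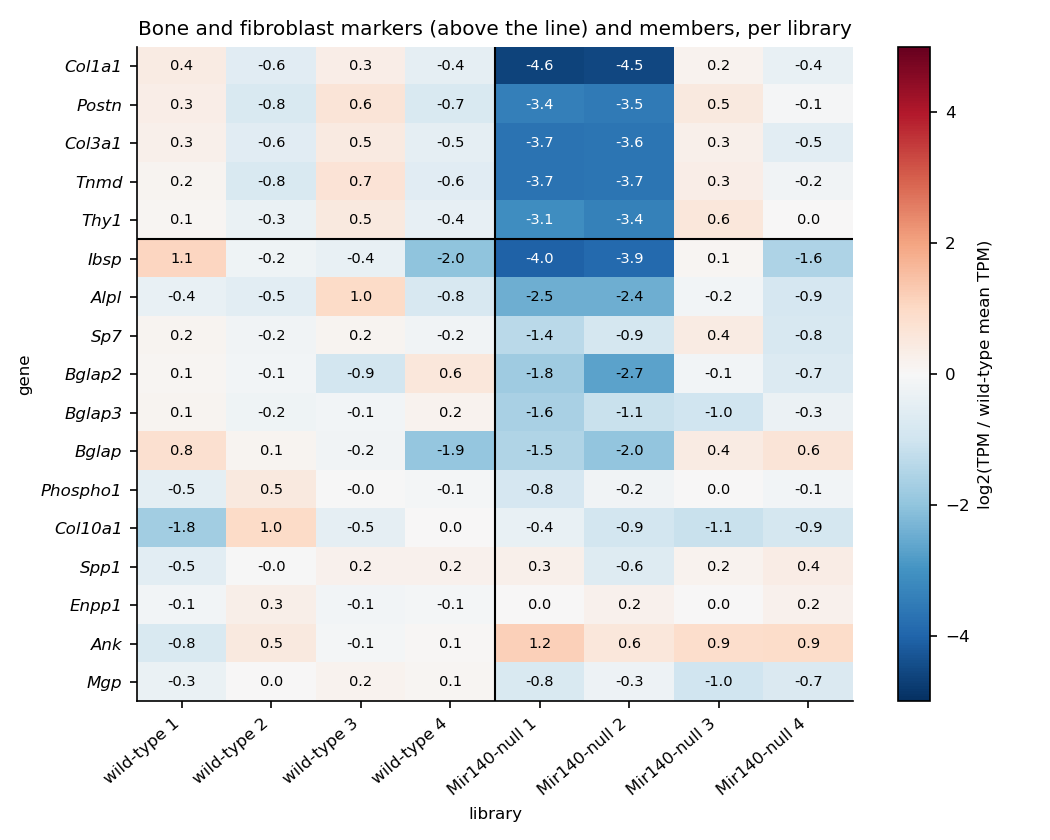
Each cell gives the log2 ratio of a gene's TPM in a library to the wild-type mean, with libraries in columns, 5 bone and fibroblast markers above the line, and the 10 members with *Bglap2* and *Bglap3* below it. *Mir140*-null 1 and 2 are the lowest libraries for all 5 markers and for *Ibsp*, *Alpl*, *Sp7*, *Bglap2* and *Bglap3*, while *Ank* is above the wild-type mean in all 4 *Mir140*-null libraries.

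Genotypes were compared with limma on log2(TPM + 1), two-sided, with Benjamini-Hochberg adjustment over the 17177 genes at 0.5 TPM or more in at least 4 libraries. Adding 1 TPM before the logarithm shrinks the fold changes of genes at low levels. Of the 10 members, 9 passed this filter. *Ank* rose and *Mgp* fell in *Mir140*-null chondrocytes at an adjusted p under 0.05, and the other 7 tested members did not pass. These 2 calls of 9 stand beside 16.9% of all tested genes called (10.5% higher, 6.40% lower in *Mir140*-null), so the count is near the background and says nothing about the group. The median log2 fold change was -0.23 for the 9 members and -0.01 for all tested genes. *Ank* alone had groups that did not overlap, where 25.9% of all tested genes did not. Without *Mir140*-null 1 and 2, 3.30% of genes were called in limma and none of the members. *Ank* and *Mgp* had an unadjusted p under 0.05 in that fit (0.0263 and 0.00215), as did 4282 of all 17177 tested genes. The members' median was then -0.01 against 0.07 for all genes. The smaller group also lowers the number of calls. Across all genes, 1797 were higher and 1100 lower in *Mir140*-null, but with median-ratio scaling on tested genes, chosen after seeing the data, the split was 1368 to 1320. With rescaling without mitochondrially encoded genes it was 2152 to 932.

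**Figure D2:**
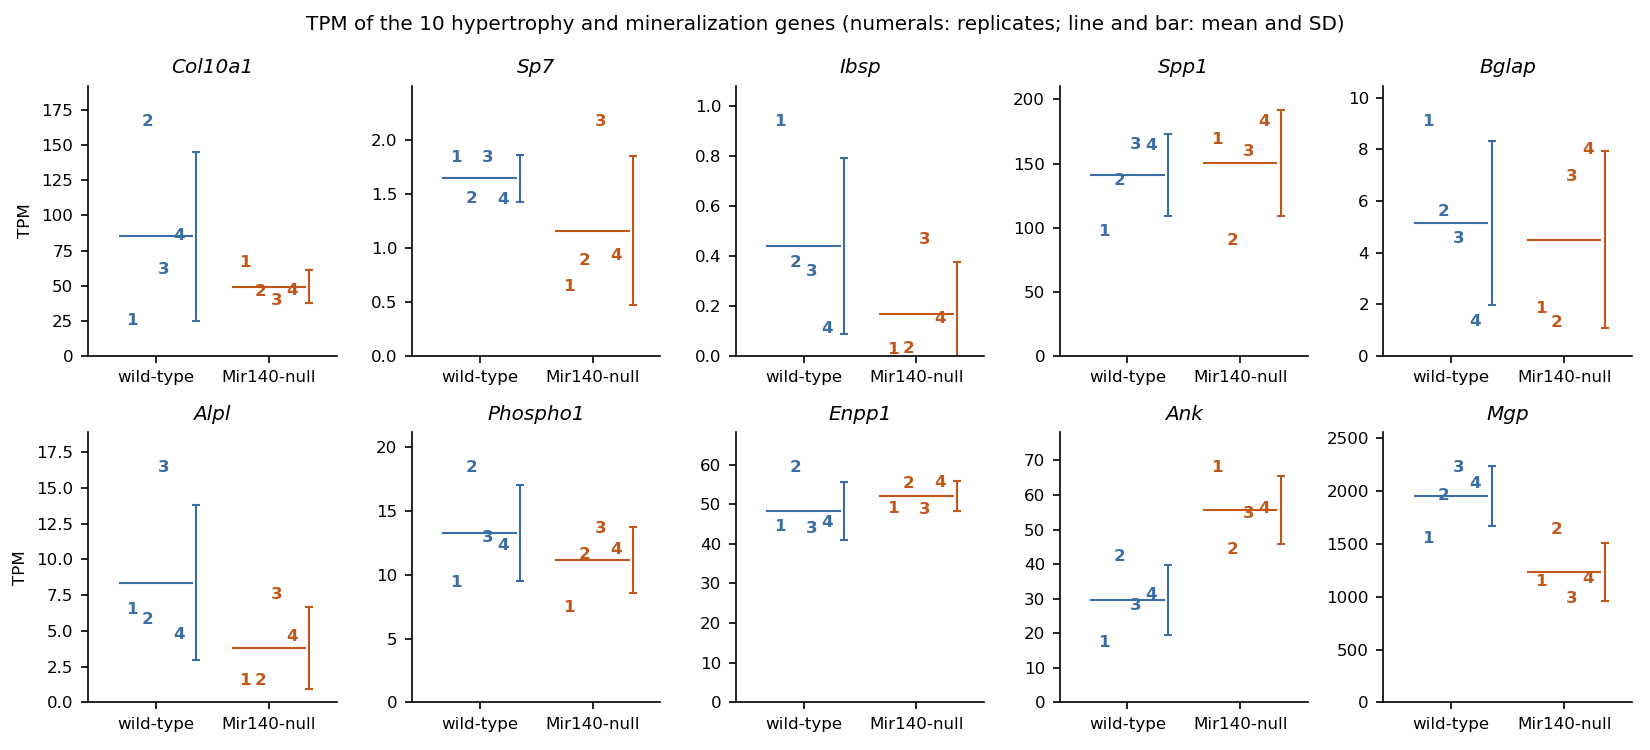
TPM of each member (vertical axes from 0, a scale for each gene) in the 4 wild-type and 4 *Mir140*-null libraries, shown as replicate numerals, with a line at the mean and a bar of 1 SD that is clipped at 0 for *Ibsp*. *Ank* is higher in every *Mir140*-null library (44.2 TPM or more) than in any wild-type library (42.1 TPM or less), and the groups overlap for the other 9 genes.

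Positions of genes are those of GRCm38. In wild-type chondrocytes the members spanned a wide range of levels in TPM, a scale already corrected for length. *Mgp* was highest at 1952 ± 286 TPM (SD, n = 4), followed by *Spp1* at 141 ± 32.1, *Col10a1* at 84.9 ± 60.0, *Enpp1* at 48.2 ± 7.34 and *Ank* at 29.6 ± 10.2. *Phospho1* (13.2 ± 3.74), *Alpl* (8.35 ± 5.39) and *Bglap* (5.15 ± 3.19) were lower, then *Sp7* (1.64 ± 0.216) and *Ibsp* (0.440 ± 0.352). In this order, neighbours overlapped between wild-type libraries, except that *Mgp* lay wholly above *Spp1*, *Enpp1* above *Ank*, and *Sp7* above *Ibsp*. In *Mir140*-null chondrocytes *Ank* (55.7 ± 9.69 TPM) stood above *Enpp1* (52.0 ± 3.80) and *Col10a1* (49.3 ± 11.6), with ranges that overlapped.

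*Col10a1*, the collagen that defines the hypertrophic zone, lies on chromosome 10 (chr10:34389981-34397085). It had 25.2, 167, 61.8 and 85.9 TPM in wild-type 1 to 4 and 66.2, 45.5, 39.5 and 46.2 TPM in *Mir140*-null 1 to 4. Wild-type 1 was the lowest and wild-type 2 the highest of all 8 libraries, a 6.61-fold span within a genotype, and the *Mir140*-null libraries lay between them. The log2 fold change was -0.50 with a 95% confidence interval from -1.65 to 0.64 (limma adjusted p = 0.512), and without *Mir140*-null 1 and 2 it was -0.68 (adjusted p = 0.588). Single libraries moved it far, to -0.97 without wild-type 1 (adjusted p = 0.105, unadjusted p = 0.0230) and to -0.08 without wild-type 2 (adjusted p = 0.910). These libraries therefore do not resolve a change of *Col10a1* in either direction. Relative to *Col2a1* within each library, the log2 ratio was -9.71 ± 1.14 (SD, n = 4) in wild-type and -9.72 ± 0.48 (n = 4) in *Mir140*-null. The 3 tested genes whose centred log2(TPM + 1) values over the 8 libraries lay nearest to those of *Col10a1* were *Gm42654*, *Rpl31-ps14* and *Il10*, at root mean square differences of 0.336, 0.354 and 0.375, where *Col10a1* itself varied by 0.751. None of these 3 exceeded 2.82 TPM.

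Of 16 other regulators and late hypertrophic genes, 14 were tested, 1 rose and 1 fell, near the 16.9% called among all tested genes, with a median log2 fold change of 0.14, or 0.06 without *Mir140*-null 1 and 2. *Panx3*, a channel protein of hypertrophic chondrocytes and osteoblasts, had 7.03, 11.4, 6.50 and 7.41 TPM in wild-type, against 3.09, 3.44, 5.22 and 2.34 TPM in *Mir140*-null. Its groups did not overlap and it fell by 1.02 on the log2 scale (SE 0.23, adjusted p = 0.0255), but the call was lost without wild-type 2, wild-type 4, *Mir140*-null 1 or *Mir140*-null 2 (adjusted p up to 0.0633 with 1 library left out), with no filter and with the replicate block (0.0624), and without both *Mir140*-null 1 and 2 it was -0.97 (adjusted p = 0.136). It was called in 12 of 19 alternatives. *Ccn2*, a matricellular growth factor, rose from 139 to 183 TPM in wild-type to 227 to 258 TPM in *Mir140*-null (log2 fold change 0.54, SE 0.11, adjusted p = 0.0180), a call lost without *Mir140*-null 2 (adjusted p = 0.0525), with the replicate block (0.0547) and without *Mir140*-null 1 and 2 together (log2 fold change 0.52), and kept in the other 16 of 19 alternatives. *Runx2*, a master regulator of both hypertrophy and bone formation, had 12.0 to 15.7 TPM in wild-type, against 10.8 to 12.5 TPM in *Mir140*-null (adjusted p = 0.145, and 0.390 without *Mir140*-null 1 and 2). *Mmp13*, the collagenase of late hypertrophic cartilage, had 15.8, 15.5 and 19.5 TPM in wild-type 1 to 3, and 20.8, 21.1, 35.2 and 34.9 TPM in *Mir140*-null 1 to 4, with wild-type 4 between *Mir140*-null 1 and 2. It did not pass with all libraries (log2 fold change 0.58, adjusted p = 0.0967) and passed without *Mir140*-null 1 and 2 (0.94, adjusted p = 0.0428). It was named after its values were seen, as was *Runx2*. *Vegfa*, the most abundant of this list by its mean in each genotype, had 186 to 230 TPM in wild-type, against 313, 335, 202 and 219 TPM in *Mir140*-null 1 to 4. The 2 libraries low in bone markers were thus the highest here (log2 fold change 0.37, adjusted p = 0.188, and 0.06 without them).

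Of the bone-associated members, *Sp7* and *Ibsp* had their lowest values in *Mir140*-null 1 and 2, *Spp1* did not, and *Bglap* was as low in a wild-type library. With *Alpl*, 3 of the 10 members (30.0%) had *Mir140*-null 1 and 2 as their 2 lowest libraries, beside 21.1% of all tested genes. *Sp7* (chr15:102356606-102367182) had 1.83, 1.46, 1.83 and 1.45 TPM in wild-type, against 0.643, 0.886, 2.17 and 0.931 TPM in *Mir140*-null 1 to 4. *Mir140*-null 3 was the highest of all libraries and the other 3 *Mir140*-null libraries were the lowest, so the groups overlapped through that library alone. The log2 fold change was -0.34 (95% confidence interval -0.81 to 0.13, adjusted p = 0.284). Leaving out *Mir140*-null 3 made it -0.54 and a call (adjusted p = 0.0351), while leaving out *Mir140*-null 1 and 2 made it -0.09 (adjusted p = 0.836).

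*Ibsp* and *Spp1* are neighbours on chromosome 5 (chr5:104299171-104311469 and chr5:104435118-104441050, both on the plus strand), 123648 bases apart, and they differed in how they varied. *Ibsp* had 0.938, 0.374, 0.338 and 0.109 TPM in wild-type, against 0.0267, 0.0294, 0.465 and 0.150 TPM in *Mir140*-null 1 to 4. It reached 0.5 TPM in wild-type 1 only and was therefore not tested among the 17177 genes. Its 2 lowest libraries were again *Mir140*-null 1 and 2, with *Mir140*-null 3 above 3 of the 4 wild-type libraries. With no filter on low values the log2 fold change was -0.29 (adjusted p = 0.446). *Spp1* had 97.0, 137, 165 and 164 TPM in wild-type, against 169, 89.8, 159 and 183 TPM in *Mir140*-null. Here *Mir140*-null 1 was among the high libraries and *Mir140*-null 2 the lowest. The log2 fold change was 0.07 (95% confidence interval -0.52 to 0.67, adjusted p = 0.874), and 0.30 without *Mir140*-null 1 and 2 (adjusted p = 0.476). The log2 ratio of *Spp1* to *Ibsp* within a library was 6.69 to 10.56 in wild-type, 12.62 and 11.58 in *Mir140*-null 1 and 2, and 8.42 and 10.25 in *Mir140*-null 3 and 4.

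The promoters of this pair are shown because the genes are neighbours of related function with unlike values across libraries. RefSeq windows (GRCm38.p6, plus strand, 250 bases before to 50 after a start site) were searched on both strands for AACCACA, a form of the site bound by Runx factors whose last 6 letters are also in the miR-140-3p seed. Of the 10 members, 8 had a window, 10 windows in all, and *Sp7* and *Mgp* had none. The letters occurred in 5.27% of 32851 windows and in 1 of the members' 10 windows (1 of the 8 members). This was a window of *Spp1*, where they start 129 bases before the start site (in capitals). The other *Spp1* window (chr5:104435942-104436241) held none and is not printed.
Spp1, chr5:104434861-104435160: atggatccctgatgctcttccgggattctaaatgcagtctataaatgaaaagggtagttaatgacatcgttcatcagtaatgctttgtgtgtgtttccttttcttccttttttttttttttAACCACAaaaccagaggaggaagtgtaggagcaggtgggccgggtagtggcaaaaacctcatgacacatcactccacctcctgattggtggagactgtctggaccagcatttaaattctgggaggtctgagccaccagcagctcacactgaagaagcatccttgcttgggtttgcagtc
Ibsp, chr5:104299037-104299336: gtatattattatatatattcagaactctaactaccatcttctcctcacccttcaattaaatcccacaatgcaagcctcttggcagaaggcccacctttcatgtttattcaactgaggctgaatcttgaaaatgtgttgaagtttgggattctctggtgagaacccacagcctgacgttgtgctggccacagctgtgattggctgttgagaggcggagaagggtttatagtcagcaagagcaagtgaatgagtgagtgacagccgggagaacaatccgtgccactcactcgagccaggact
No factor's binding was measured, and a match or its absence in a window says nothing about the factor.

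For *Ibsp*, the nearest tested genes by centred log2(TPM + 1) were *Tk1*, *Kif18b* and *Kifc5b* (root mean square differences 0.0950, 0.106 and 0.108, against a spread of 0.291 for *Ibsp* itself over the 8 libraries). For *Spp1* they were *Ppp1r1a*, *D830036C21Rik* and *Banf2* (0.112, 0.129 and 0.139, against 0.360), all at or below 1.59 TPM. Each of these 6 genes had an adjusted p above 0.05, beside 16.9% of all tested genes called. They were picked for values like those of *Ibsp* and *Spp1*, so this is not a separate result.

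*Bglap* belongs to a cluster of 3 related genes, *Bglap2* nearly identical to it over much of the transcript, that spans 15849 bases on the minus strand of chromosome 3 (*Bglap* at chr3:88383501-88384464). Of the 75-base windows of its transcript, 66.1% also occur exactly in *Bglap2* and 3.01% in *Bglap3*, so reads could be assigned to either copy and the single values are uncertain. *Bglap* had 9.09, 5.61, 4.56 and 1.35 TPM in wild-type, against 1.82, 1.30, 6.93 and 7.98 TPM in *Mir140*-null 1 to 4. Wild-type 4 was as low as *Mir140*-null 1 and 2, and the log2 fold change was -0.23 (95% confidence interval -1.56 to 1.10, adjusted p = 0.811). The sign turned without *Mir140*-null 1 and 2, to 0.63 (adjusted p = 0.528). *Bglap2* had 4.91, 4.24, 2.45 and 6.81 TPM in wild-type, against 1.34, 0.726, 4.22 and 2.84 TPM in *Mir140*-null (log2 fold change -0.84, SE 0.38, adjusted p = 0.163, and -0.26 without *Mir140*-null 1 and 2). For *Bglap2*, with a transcript of 471 bases, 73.3% of windows are shared with another copy, and 15.1% occur in *Bglap3*. For *Bglap3*, with a longer transcript of 2051 bases, 3.03% of windows are shared with another copy. *Bglap3* had 4.16, 3.26, 3.49 and 4.29 TPM in wild-type, against 1.24, 1.74, 1.93 and 3.14 TPM in *Mir140*-null. It was the only copy whose groups did not overlap, and it fell by 0.70 on the log2 scale (SE 0.20, adjusted p = 0.0457). The call held in 4 of 18 alternatives (adjusted p 0.0216 to 0.211). It held in 1 of the 8 fits with a library left out, the fit without *Mir140*-null 4, and adjusted p reached 0.109 in the other 7. Without *Mir140*-null 1 and 2 the value was -0.46 (adjusted p = 0.211). With the TPM of the 3 copies summed, the log2 fold change was -0.74 (adjusted p = 0.241).

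Of the 16 osteoblast markers, which include *Bglap2* and *Bglap3*, 12 were tested, 2 fell and 1 rose (3 of 12 called, beside 16.9% of all tested genes), and the median log2 fold change was -0.56, or -0.12 without *Mir140*-null 1 and 2. *Omd* (osteomodulin), a keratan sulphate proteoglycan of mineralized tissue, fell from 211 to 297 TPM to 108 to 167 TPM (log2 fold change -0.87, SE 0.17, adjusted p = 0.0152) and was called with each library left out in turn, though not with the replicate block (adjusted p = 0.0515) or without *Mir140*-null 1 and 2 together (adjusted p = 0.0737). *Tnfsf11* (RANKL) rose from 0.823 to 0.851 TPM to 1.12 to 1.78 TPM (log2 fold change 0.41, SE 0.11, adjusted p = 0.0410), a call that held in 1 of the 8 fits with a library left out, that without *Mir140*-null 4 (adjusted p up to 0.0972 in the others), and not without *Mir140*-null 1 and 2 (0.40, adjusted p = 0.152), with the replicate block (0.0948) or with no filter (0.163). *Col1a1* had a log2 fold change of -2.26 with an interval from -4.84 to 0.32 (adjusted p = 0.197), and of -0.03 without *Mir140*-null 1 and 2 (adjusted p = 0.966). *Sparc* had 19410 to 23651 TPM in wild-type, against 15925 to 18545 TPM in *Mir140*-null, without overlap (log2 fold change -0.33, adjusted p = 0.0612, and -0.30 without *Mir140*-null 1 and 2).

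Among the enzymes and the transporter that set phosphate and pyrophosphate, *Ank* rose, *Enpp1* and *Phospho1* showed no resolved difference, and *Alpl* was lowest in *Mir140*-null 1 and 2. *Alpl* (chr4:137741733-137796384) had 6.49, 5.76, 16.4 and 4.78 TPM in wild-type, against 1.52, 1.54, 7.51 and 4.62 TPM in *Mir140*-null 1 to 4. *Mir140*-null 1 and 2 lay below every other library, *Mir140*-null 4 just below the lowest wild-type library, and *Mir140*-null 3 within the wild-type range. The log2 fold change of -1.01 had an interval from -2.14 to 0.11 (adjusted p = 0.185). It was -0.29 without *Mir140*-null 1 and 2 (adjusted p = 0.749), and passed the threshold with 1 factor of unwanted variation in the model (log2 fold change again -1.01, adjusted p = 0.0485), the only call among 19 alternatives (adjusted p 0.0485 to 0.749). With 1 library left out it ran from -1.36 without *Mir140*-null 3 to -0.67 without wild-type 3.

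*Phospho1* (chr11:95824499-95832140) had 9.39, 18.4, 12.9 and 12.3 TPM in wild-type, against 7.48, 11.6, 13.6 and 12.0 TPM in *Mir140*-null. The groups overlapped, with a log2 fold change of -0.22 (95% confidence interval -0.75 to 0.32, adjusted p = 0.541). It was -0.36 without wild-type 1, -0.06 without wild-type 2, -0.05 without *Mir140*-null 1, and -0.01 without *Mir140*-null 1 and 2 (adjusted p = 0.985). *Enpp1* (chr10:24637914-24712159) had 44.4, 59.2, 43.8 and 45.5 TPM in wild-type, against 48.8, 55.3, 48.7 and 55.4 TPM in *Mir140*-null. Only wild-type 2 exceeded the *Mir140*-null libraries, and the log2 fold change of 0.12 had an interval from -0.17 to 0.40 (adjusted p = 0.539), which was the narrowest of the tested members, and the value was the same without *Mir140*-null 1 and 2 (adjusted p = 0.690).

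*Ank* (chr15:27466677-27594909) had 17.4, 42.1, 28.0 and 31.1 TPM in wild-type, against 67.9, 44.2, 54.6 and 56.0 TPM in *Mir140*-null 1 to 4. All 4 *Mir140*-null libraries were above all 4 wild-type libraries, though the highest wild-type and the lowest *Mir140*-null library differed by little. The mean was 1.88 times that of wild-type and the log2 fold change 0.94 (SE 0.25, 95% confidence interval 0.35 to 1.52, adjusted p = 0.0403). The size was the same without *Mir140*-null 1 and 2 (0.94), where it was no longer called (adjusted p = 0.146). With 1 library left out the log2 fold change was 0.71 to 1.12, and the call held only without wild-type 2 (adjusted p = 0.0295), while adjusted p was up to 0.0960 when each of the other 7 was left out. With the replicate number as a block the adjusted p was 0.103, and the call was also lost with no filter (0.0852) and with quantile normalization (0.0616). Over 19 alternatives the adjusted p ran from 0.0295 to 0.146. The direction was upward in each, though a changed filter, the replicate block and 1 factor of unwanted variation cannot move the estimate of 0.94.

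*Ank* and *Enpp1*, which raise extracellular pyrophosphate, were set against *Alpl*, which breaks it down, as ratios within each library, where scaling between libraries has no part. The ratios were not tested, and neither *Enpp1* nor *Alpl* was called. The log2 ratio of *Ank* to *Alpl* was 1.42, 2.87, 0.77 and 2.70 in wild-type 1 to 4 and 5.48, 4.84, 2.86 and 3.60 in *Mir140*-null 1 to 4. *Mir140*-null 1 and 2 were highest, and *Mir140*-null 3 was just below wild-type 2. The ratio of *Enpp1* to *Alpl* was 2.77, 3.36, 1.42 and 3.25 in wild-type 1 to 4, and 5.17, 2.70 and 3.58 in *Mir140*-null 2 to 4. *Mir140*-null 1 lay just under *Mir140*-null 2, and both were above all other libraries, while *Mir140*-null 3 was below 3 of the 4 wild-type libraries. The same 2 libraries had the lowest *Col1a1*, whose part in the ratios was not tested.

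**Figure D3:**
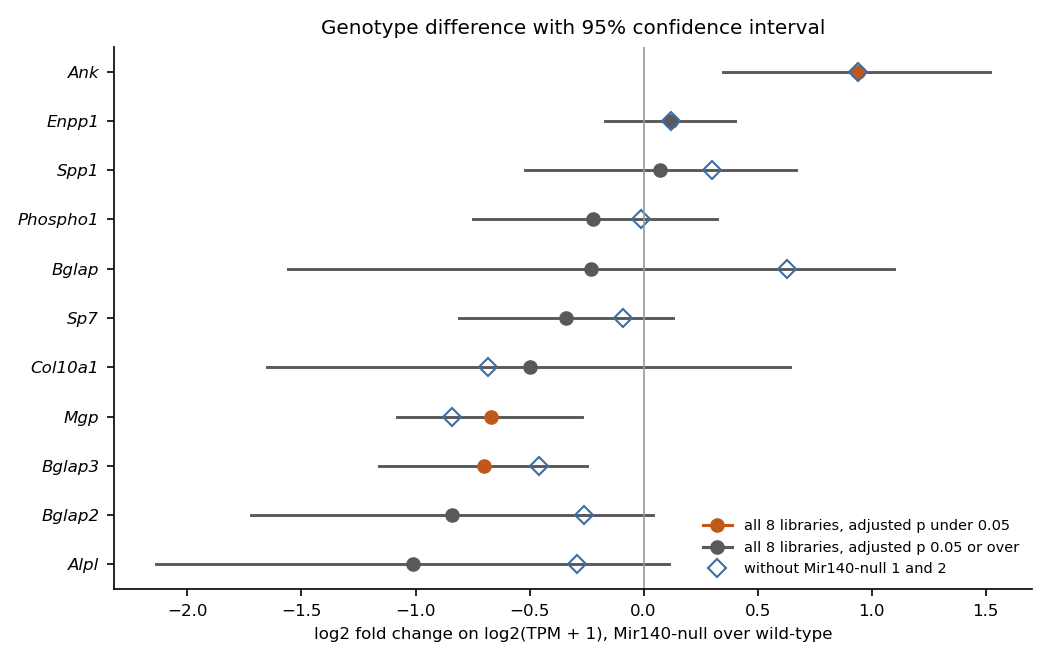
Log2 fold change of the 9 tested members and of *Bglap2* and *Bglap3* on log2(TPM + 1) (horizontal axis, *Mir140*-null over wild-type), with the 95% confidence interval from all 8 libraries, and diamonds for the value without *Mir140*-null 1 and 2. *Ank* is at 0.94 in both, *Mgp* at -0.67 and -0.84, *Alpl* moves from -1.01 to -0.29, and *Bglap* from -0.23 to 0.63.

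Further genes of phosphate and pyrophosphate handling gave 3 rises and 1 fall among 11 tested of 12 listed, beside 16.9% of all tested genes called, with a median log2 fold change of -0.00, or 0.32 without *Mir140*-null 1 and 2. *Ppa1*, the cytosolic pyrophosphatase, had 485, 816, 477 and 607 TPM in wild-type, against 190, 186, 198 and 176 TPM in *Mir140*-null. It was the most abundant of the listed genes in wild-type, while *Slc20a1* was higher in every *Mir140*-null library. The wild-type mean of *Ppa1* was 3.18 times its *Mir140*-null mean, the groups were far apart, and all 4 *Mir140*-null libraries were nearly equal, *Mir140*-null 1 and 2 included. Its log2 fold change of -1.63 (SE 0.17, adjusted p = 0.00402) passed under each of the 19 alternatives, with adjusted p up to 0.0398, and without *Mir140*-null 1 and 2 it was again -1.63 (adjusted p = 0.0347). *Nt5e* (CD73), which turns extracellular AMP into adenosine and phosphate, had 19.9, 53.8, 38.1 and 46.6 TPM in wild-type, against 188, 166, 80.4 and 116 TPM in *Mir140*-null. It rose in all 4 *Mir140*-null libraries, most in *Mir140*-null 1 and 2, with a mean 3.48 times that of wild-type (log2 fold change 1.79, SE 0.36, adjusted p = 0.0173). Over 19 alternatives the adjusted p ran from 0.0102 to 0.114, and the call was lost without *Mir140*-null 2 (adjusted p = 0.0508), with the replicate block (0.0526) and without both *Mir140*-null 1 and 2 (1.35, adjusted p = 0.114).

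Both type III sodium-phosphate cotransporters were called higher, *Slc20a1* under few alternatives. *Slc20a2* (PiT2) had 4.92, 10.4, 6.67 and 7.12 TPM in wild-type, against 15.9, 18.5, 11.5 and 15.3 TPM in *Mir140*-null (2.10 times the wild-type mean, 95% confidence interval of the log2 fold change 0.49 to 1.51, adjusted p = 0.0226). The call was lost without wild-type 3, wild-type 4, *Mir140*-null 1 or *Mir140*-null 2 (adjusted p up to 0.0623), and held in 14 of 19 alternatives. *Slc20a1* (PiT1) had 259, 262, 230 and 271 TPM in wild-type, against 531, 576, 303 and 347 TPM in *Mir140*-null (log2 fold change 0.73, SE 0.21, adjusted p = 0.0482), a call that held in 1 of the 8 fits with a library left out, that without *Mir140*-null 3, with adjusted p up to 0.111 in the others. It held in 4 of 19 alternatives, and was lost with a pseudocount of 0.1, no filter, either median-ratio scaling, quantile normalization, the replicate block and sample quality weights. The log2 fold changes were 0.83 for *Slc20a2* and 0.35 for *Slc20a1* without *Mir140*-null 1 and 2 (adjusted p = 0.138 and 0.123). The phosphate exporter *Xpr1* and the vesicle sphingomyelinase *Smpd3* did not pass (adjusted p = 0.745 and 0.748).

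The 9 genes of matrix vesicle proteins, of which *Smpd3* is also on the list above, gave 3 rises and no fall among 8 tested, again beside 16.9% of all tested genes, with a median of 0.20, or 0.42 without *Mir140*-null 1 and 2. The integrin subunit *Itga5* rose from 40.6 to 64.7 TPM to 74.6 to 144 TPM (log2 fold change 0.95, SE 0.25, adjusted p = 0.0382), and held only without *Mir140*-null 3 or *Mir140*-null 4 among the 8 fits with a library left out (adjusted p up to 0.0960 in the others), and in 6 of 19 alternatives. The annexin *Anxa7* rose from 39.4 to 65.7 TPM to 80.0 to 101 TPM (log2 fold change 0.63, SE 0.17, adjusted p = 0.0422), and held only without wild-type 1 among those 8 fits (adjusted p up to 0.0889 in the others), and in 8 of 19 alternatives. *Itgb1*, the partner chain of *Itga5*, rose from 88.4 to 98.6 TPM to 119 to 144 TPM (0.42, SE 0.09, adjusted p = 0.0232), a call lost without wild-type 2, wild-type 3 or wild-type 4 (adjusted p up to 0.0597), with the replicate block (0.0633) and with quantile normalization (0.25, adjusted p = 0.131). *Anxa5*, a calcium-binding annexin and the most abundant of the list by its mean in each genotype, had 508 to 591 TPM in wild-type, against 528, 527, 714 and 687 TPM in *Mir140*-null 1 to 4 (adjusted p = 0.462). Without *Mir140*-null 1 and 2 the list had no call in limma, beside 3.30% of all tested genes. In that fit 4 of the list had an unadjusted p under 0.05, beside 4282 of all 17177 tested genes. The log2 fold changes were then 0.53 for *Itga5*, 0.71 for *Anxa7* and 0.50 for *Itgb1* (adjusted p = 0.167, 0.133 and 0.0591).

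*Mgp* (chr6:136872435-136875823), the most abundant member, had 1555, 1960, 2222 and 2070 TPM in wild-type, against 1143, 1635, 988 and 1173 TPM in *Mir140*-null 1 to 4. The groups overlapped only because *Mir140*-null 2 was above wild-type 1. The *Mir140*-null mean was 0.633 of the wild-type mean and *Mgp* fell by 0.67 on the log2 scale (SE 0.18, 95% confidence interval -1.08 to -0.27, adjusted p = 0.0362). The value was larger in size without *Mir140*-null 1 and 2 (-0.84), though not called (adjusted p = 0.0553). With 1 library left out it was -0.82 to -0.57, and the call held without wild-type 1 and without *Mir140*-null 2 (lowest adjusted p 0.0304) but not without any of the other 6 (up to 0.0912). It was lost with the replicate block (adjusted p = 0.0743), with no filter (0.0847), with quantile normalization (0.0541) and with median-ratio scaling on all genes above 0 (0.0621). The log2 fold change was negative under each of the 19 alternatives, though a changed filter, the replicate block and 1 factor of unwanted variation cannot move it. The log2 ratio of *Mgp* to *Bglap*, 2 proteins that carry Gla residues, was 7.42 to 10.58 in wild-type and 7.16 to 10.29 in *Mir140*-null. The ranges overlapped in part, with *Mir140*-null 3 and 4 (7.16 and 7.20) below every wild-type library and wild-type 4 above every *Mir140*-null library.

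The carboxylation that *Mgp* and *Bglap* require is made by the vitamin K cycle, and 3 of its 5 genes were called, where 16.9% of all tested genes were, with a median log2 fold change of -0.31, or -0.28 without *Mir140*-null 1 and 2. The list is short and was not tested as a group. *Ggcx*, the gamma-glutamyl carboxylase itself, had 48.2 to 52.7 TPM in the 4 wild-type libraries and 25.0, 29.7, 32.3 and 34.7 TPM in *Mir140*-null. The wild-type libraries were tightly grouped and all *Mir140*-null libraries were well below them, with a log2 fold change of -0.71 (SE 0.12, adjusted p = 0.0103), called under each of the 19 alternatives (adjusted p up to 0.0431, and 0.0428 without *Mir140*-null 1 and 2, where it was -0.56). *Vkorc1*, which regenerates reduced vitamin K, had 222, 219, 202 and 229 TPM in wild-type, against 101, 130, 162 and 166 TPM in *Mir140*-null (log2 fold change -0.66, SE 0.16, adjusted p = 0.0292). Its call was lost without any 1 wild-type library or without *Mir140*-null 2 (adjusted p up to 0.0752), with no filter, with the replicate block (0.0648), and without *Mir140*-null 1 and 2 (-0.41, adjusted p = 0.0647). *Calu* (calumenin), a reticular calcium-binding protein known to inhibit the carboxylase, had 198, 197, 210 and 192 TPM in wild-type, against 293, 294, 323 and 343 TPM in *Mir140*-null. It rose with no overlap (log2 fold change 0.65, SE 0.09, adjusted p = 0.00632) and was called under each of the 19 alternatives (adjusted p up to 0.0418, and 0.0232 without *Mir140*-null 1 and 2, where it was 0.74). *Vkorc1l1*, a paralog of *Vkorc1*, had 9.66 to 12.6 TPM in wild-type, against 13.1 to 23.5 TPM in *Mir140*-null (adjusted p = 0.0777). Carboxylation was not measured.

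Among 16 mineralization inhibitors and mineral-binding glycoproteins, 11 were tested, 3 rose and none fell, beside 16.9% of all tested genes called, with a median log2 fold change of 0.07, or 0.36 without *Mir140*-null 1 and 2. *Tnfrsf11b* (osteoprotegerin), the decoy receptor of RANKL, had 19.5, 26.7, 21.4 and 27.4 TPM in wild-type, against 51.7, 65.2, 66.9 and 76.7 TPM in *Mir140*-null. Every *Mir140*-null library was well above the wild-type range and the mean was 2.74 times as high (log2 fold change 1.42, SE 0.16, adjusted p = 0.00497). The call held under each of the 19 alternatives (adjusted p up to 0.0398), and without *Mir140*-null 1 and 2 the value was 1.57 (adjusted p = 0.0228). *Ucma*, a Gla-rich cartilage protein also counted as a chondrocyte marker and the most abundant here, had 819, 653, 718 and 750 TPM in wild-type, against 1023, 1400, 1007 and 1168 TPM in *Mir140*-null (log2 fold change 0.64, SE 0.13, adjusted p = 0.0179). It was called in all but the fit without wild-type 3 (adjusted p = 0.0513) among those with 1 library left out, but not with the replicate block (0.0656), and not without *Mir140*-null 1 and 2 (0.57, adjusted p = 0.0637). *Stc2*, a stanniocalcin, rose from 4.87 to 9.33 TPM to 10.6 to 15.7 TPM (0.75, SE 0.21, adjusted p = 0.0455) and held in 5 of 19 alternatives, among them the fit without wild-type 2 alone of those with a library left out (adjusted p up to 0.104 in the other 7, and 0.64 with an adjusted p of 0.183 without *Mir140*-null 1 and 2). *Ahsg* (fetuin-A), *Dmp1*, *Mepe*, *Dspp* and *Sost* were under 0.5 TPM in every library.

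**Figure D4:**
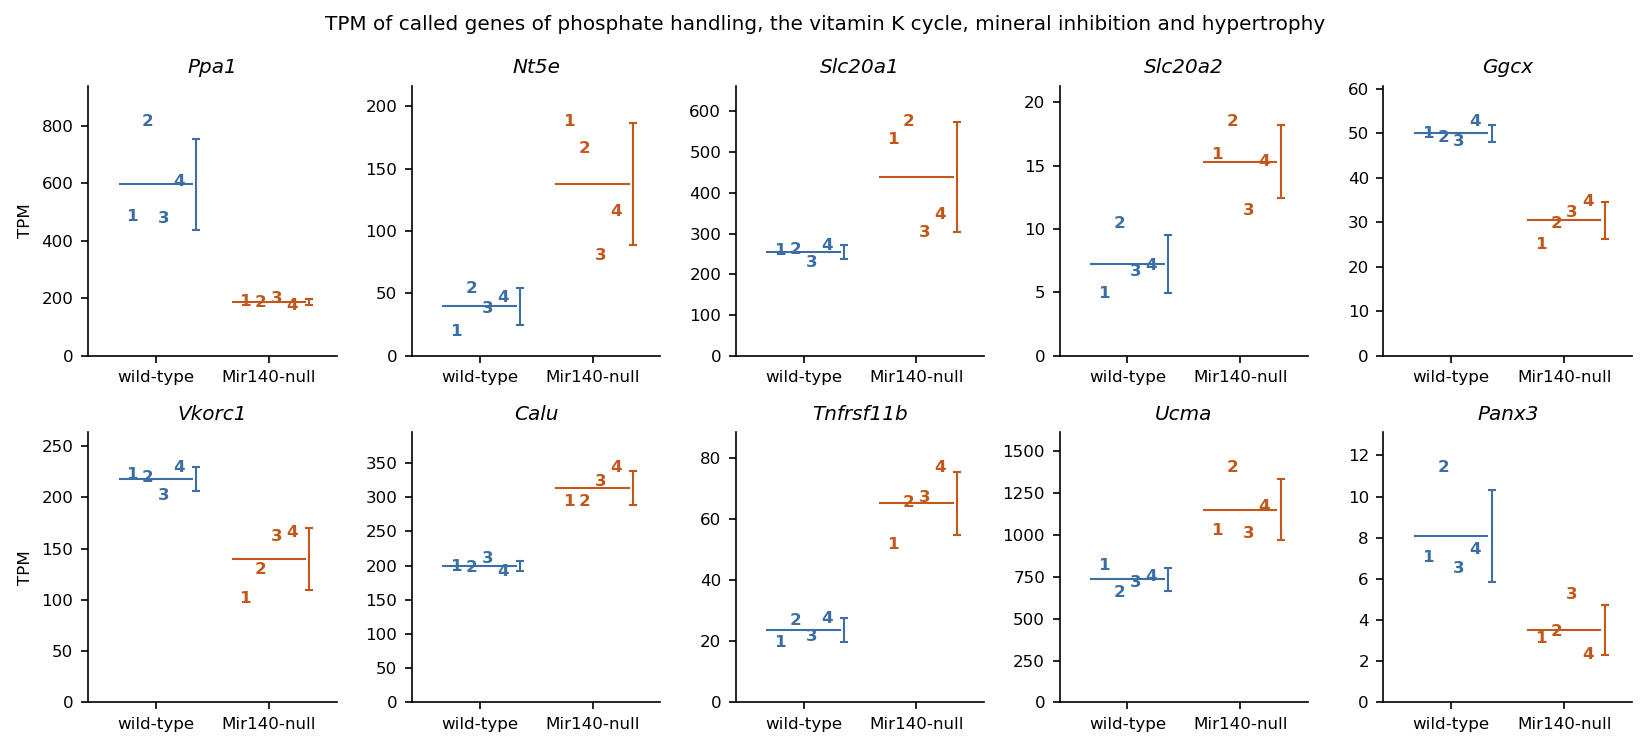
TPM (vertical axes from 0, a scale for each gene) of 10 called genes of phosphate handling, the vitamin K cycle, mineral inhibition and hypertrophy, as replicate numerals with a line at the mean and a bar of 1 SD. The groups do not overlap in any of the 10, all picked from called genes, where 25.9% of all tested genes do not. *Mir140*-null 1 and 2 lie with the other *Mir140*-null libraries for *Ppa1*, *Calu* and *Tnfrsf11b* but apart from them for *Nt5e* and *Slc20a1*.

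In the surrounding chondrocyte programme, 5 of 18 markers fell and 2 rose, beside 16.9% of all tested genes called, with a median log2 fold change of -0.10, or -0.11 without *Mir140*-null 1 and 2. Leaving out those libraries left no call in limma, beside 3.30% of all tested genes. In that fit 8 markers had an unadjusted p under 0.05, beside 4282 of all 17177 tested genes. The log2 fold changes were then 0.84 for *Acan*, -1.13 for *Chad* and -0.47 for *Epyc* (adjusted p = 0.0741, 0.0598 and 0.0879). *Acan* (aggrecan) rose from 447 to 681 TPM to 876 to 1085 TPM (0.88, SE 0.15, adjusted p = 0.0107) and *Chad* (chondroadherin) fell from 1022 to 1804 TPM to 500 to 659 TPM (-1.21, SE 0.18, adjusted p = 0.00801), both called with each library left out in turn. *Epyc* (epiphycan) fell from 205 to 263 TPM to 118 to 176 TPM (-0.68, SE 0.15, adjusted p = 0.0216), a call lost without wild-type 1, wild-type 3, wild-type 4 or *Mir140*-null 2 (adjusted p up to 0.0604) and with the replicate block (0.0567). *Col2a1*, the most abundant, had a log2 fold change of -0.49 (adjusted p = 0.0695). Among the 6 tested fibroblast and tendon markers, *Pdgfra*, a growth factor receptor, alone was called, again beside 16.9% of all tested genes. It rose from 11.8 to 19.8 TPM to 31.5 to 36.5 TPM (1.03, SE 0.16, adjusted p = 0.00846), in *Mir140*-null 1 and 2 as in 3 and 4, while the median of its list was -0.85. Without *Mir140*-null 1 and 2 it was 0.98 (adjusted p = 0.0627) and the median of its list 0.26. *Lyz2* fell by 0.74 on the log2 scale (SE 0.17, adjusted p = 0.0243), a call lost without wild-type 2, wild-type 3, *Mir140*-null 1 or *Mir140*-null 2 (adjusted p up to 0.0667), with no filter, with the replicate block (0.0590), and without both *Mir140*-null 1 and 2 (-0.50, adjusted p = 0.126).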

How the data were processed

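Salmon TPM by Ensembl identifier are the values the authors deposited, 1 file to a library (single-end 75-base reads, stranded poly(A) kit, mm10). The notes name FastQC 0.11.7, and DESeq2 for the authors' later test; no Salmon version was found in the sources used here. Each TPM library sums to 1000000 once repeated lines are counted once, so the depth behind a value is unknown and no counting interval was computed.

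Symbols and positions came from GENCODE M21 (99.8% of identifiers), and miRNA and promoter sequences from RefSeq on GRCm38.p6. The 3′UTRs were those of the longest coding transcript per gene. A gene needed 0.5 TPM or more in at least 4 libraries, and was fitted in limma 3.58.1 (R 4.3.3) on log2(TPM + 1) with a mean-variance trend and genotype as the only term, and called at a Benjamini-Hochberg adjusted p under 0.05. Intervals are limma's 95% confidence intervals. The script was tested on simulated data. Python 3.11.15, pandas 2.3.3, NumPy 2.4.6 and matplotlib 3.10.9 were used for the rest.

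Named genes were the 10 members, *Bglap2*, *Bglap3*, *Mir140* and *Wwp2*, from each of 12 gene lists the 2 highest and 2 lowest log2 fold changes among called genes and the most abundant gene, and the 3 tested genes nearest to *Col10a1*, *Ibsp* and *Spp1* by root mean square difference of centred log2(TPM + 1). Other list genes named in the text, including the cell type markers set out per library, were chosen after their values were seen. The members and lists were chosen with earlier results of these data known.

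Alternatives were a pseudocount of 0.1, no filter, a mean of at least 5 TPM, median-ratio scaling, quantile normalization, rescaling without mitochondrially encoded genes, the replicate block, 1 factor of unwanted variation from residuals, sample quality weights, each library left out, and the 3 *Bglap* copies summed. Leaving out *Mir140*-null 1 and 2 together and median-ratio scaling on tested genes were added after seeing the data.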

Additional observations from a re-analysis of the deposited data

Results flagged for a closer look

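In 2 of 24 groups of 4 values (12 genes, the members with *Bglap2* and *Bglap3*, in 2 genotypes), 1 library lay far from the other 3, its gap to the nearest, as a share of the group's range, passing Dixon's 95% critical value for 4 values. Chance gives about 1 such group in 20. *Alpl* had 16.4 TPM in wild-type 3 against 4.78 to 6.49 TPM in the other wild-type libraries, a gap of 0.852 of the range. *Enpp1* had 59.2 TPM in wild-type 2 against 43.8 to 45.5 TPM in the others, a gap of 0.884 of the range. Without wild-type 3 the log2 fold change of *Alpl* was -0.67 (adjusted p = 0.366), and without wild-type 2 that of *Enpp1* was 0.22 (adjusted p = 0.197), neither of them a call.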

How the results depend on the processing

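Across all genes, 1797 were higher and 1100 lower in *Mir140*-null. With no filter 977 were higher and 539 lower, with the filter at a mean of 5 TPM 605 were lower, and with 1 factor of unwanted variation 2016 were lower. With each library left out in turn the counts ran from 779 (without *Mir140*-null 2) to 1553 and from 419 (without wild-type 4) to 1214 (both highest without *Mir140*-null 3), and without *Mir140*-null 1 and 2 they were 357 and 210. With the replicate number as a block they were 671 and 454. The numbers are shared by label only: deviations of same-numbered libraries from their group means correlated across genes at 0.03, 0.02, 0.07 and -0.01, and no library correlated best with its own number.

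Of the members, 1 was higher (*Ank*) and 1 lower (*Mgp*). Both counts were 0 with no filter, with quantile normalization, with the replicate block and without *Mir140*-null 1 and 2 (limma, both genes at an unadjusted p under 0.05 in each), and the lower count was 0 with median-ratio scaling on all genes above 0 and 2 with 1 factor of unwanted variation, which added *Alpl*. With each library left out they ran from 0 to 1, and without *Mir140*-null 3 the lower call was *Sp7* in place of *Mgp*. The cause was not tested; leaving out libraries also leaves fewer samples. The sign turned for *Spp1* with quantile normalization (-0.11), without wild-type 1 (-0.10), *Mir140*-null 1 (-0.00) or *Mir140*-null 4 (-0.04; -0.10 to 0.30 with each library left out), and for *Enpp1* with quantile normalization (-0.04). It turned for *Bglap* with sample quality weights (0.23), without wild-type 1 (0.07), *Mir140*-null 1 (0.01) or *Mir140*-null 2 (0.11; -0.63 to 0.11 with each library left out), and without both *Mir140*-null 1 and 2 (0.63). None of these was a call. *Col10a1*, *Alpl*, *Sp7*, *Phospho1*, *Ank* and *Mgp* kept their sign in each alternative run. A changed filter, the replicate block and 1 factor of unwanted variation leave a log2 fold change as it is, and could not turn a sign. *Ibsp* was fitted here only with no filter, and *Sp7*, *Bglap* and its copies had no value at a mean of at least 5 TPM. Among 26 called list genes outside the members, 9 were called in all 8 fits with a library left out, 9 with the replicate block, and 4 without *Mir140*-null 1 and 2. These 4 were *Ppa1*, *Ggcx*, *Calu* and *Tnfrsf11b*. Of all 1797 higher and 1100 lower genes, 637 and 411 kept their call with the replicate block. Without *Mir140*-null 1 and 2, 325 and 186 kept it. Calls kept in all 8 fits were not counted over all genes.

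TPM carry no depth, so the number of reads behind values under 1 TPM, such as those of *Ibsp*, is not known, and a p above the threshold does not show that the genotypes were alike. Protein, mineral and cell composition were not measured.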
